A study of Mus musculus with 2 samples.

Results

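Antigen presentation genes were followed across the cells of mouse pancreatic islets. The 10 members, of 31053 genes measured, were taken by symbol. There were 6 genes of class I presentation (H2-K1, H2-D1, B2m, Tap1, Tapbp and Psmb8) and 4 of class II presentation (Cd74, H2-Aa, H2-Ab1 and H2-Eb1). Islets came from wild-type female C57BL/6J mice, 9 weeks old when the study began, that either stayed virgin or gave birth 3 times in a row (multipara). Multipara islets were taken 3 weeks after the last delivery, and virgin islets from mice of the same age. They were dissociated with trypsin and profiled by droplet sequencing of RNA 3′ ends, with 1 library per group. At least 2 mice stood behind each group, but cells are not tied to mice, so each library counts as 1 sample. No difference between the libraries was tested, and the intervals below cover counting error only.

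Class I molecules sit on nearly every nucleated cell and show peptides from inside the cell to CD8 T cells. Peptides are cut by the proteasome, pumped into the endoplasmic reticulum, and loaded onto a heavy chain that needs beta-2-microglobulin to reach the surface. Class II molecules are made mainly by macrophages, dendritic cells and B cells and show peptides from taken-up material to CD4 T cells. Their transcription depends on the coactivator encoded by Ciita, and both pathways are induced by interferon. In islets these genes are best known from autoimmune diabetes, in which beta cells are the target of T cells.

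In GRCm38, 8 of the 10 genes lie on chromosome 17, in the major histocompatibility complex. H2-K1 lies at chr17:33996017-34000347 and H2-D1 at chr17:35262730-35267499. Tap1 (chr17:34187553-34197225) and Psmb8 (chr17:34197721-34201454) are neighbours, and H2-Ab1 (chr17:34257689-34269419), H2-Aa (chr17:34282744-34287823) and H2-Eb1 (chr17:34305867-34316674) follow. Tapbp lies at chr17:33915899-33929292. B2m (chr2:122147686-122153083) and Cd74 lie on other chromosomes. All 10 are annotated as protein coding.

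Sequence upstream of 5 members is shown because both pathways are known for shared promoter letters, which a reader can set beside the shared and separate levels of these genes. The sequences are from RefSeq on GRCm38.p6, written 5′ to 3′ on the strand of the gene, and positions are counted back from the base before the RefSeq transcript start, which is -1. Capitals mark matches, on either strand, to part of an NF-kB site (GGGGANTCC), an interferon element (GAANNGAAA or AAANNGAAA), the Y box core (GATTGG) or an X box form (AGNAACNGA). Within 250 bases of a start, the NF-kB letters were in 1.04% of 32851 promoters, the first interferon form in 6.31%, the second in 9.37%, the Y box core in 14.6% and the X box form in 4.42%. The 2 interferon forms can overlap, and the NF-kB capitals join a match on each strand. Records of 8 members were searched, and those of Tapbp and Psmb8 held none of these letters. The RefSeq start lies 3579 bases from the annotated gene start for Tapbp, 474 for Psmb8 and 364 for H2-D1, and at most 3 for the others, so the windows of these 3 genes may not lie before the transcripts counted.
H2-K1, chr17:34000429-34000458, minus strand: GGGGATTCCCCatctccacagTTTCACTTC
H2-D1, chr17:35262923-35262952, plus strand: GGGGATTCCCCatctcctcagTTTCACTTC
B2m, chr2:122147549-122147638, plus strand: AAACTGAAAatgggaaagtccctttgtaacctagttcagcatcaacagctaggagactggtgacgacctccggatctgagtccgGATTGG
H2-Aa, chr17:34287853-34287923, minus strand: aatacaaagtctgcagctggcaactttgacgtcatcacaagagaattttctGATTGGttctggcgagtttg
H2-Eb1, chr17:34305767-34305837, plus strand: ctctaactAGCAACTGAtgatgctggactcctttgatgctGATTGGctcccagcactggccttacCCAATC

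The H2-K1 stretch runs from -111 to -82 and the H2-D1 stretch from -171 to -142. They share 29 of 30 bases, and the substitution from H2-K1 to H2-D1 is A18T, counted from 1 at the 5′ end of the stretch. The H2-D1 stretch falls inside the first exon of a longer annotated H2-D1 transcript. The B2m stretch, from -138 to -49, starts with the second interferon form and ends with the Y box core. In H2-Aa and H2-Eb1 the Y box core begins at -49 and -60. It was also matched in H2-D1 from -53 to -48, outside the stretch shown, and in Tap1 from -222 to -217. These matches are letters in a window and were not measured as sites.

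The virgin library held 94853806 unique molecular identifiers (UMIs, 1 per captured RNA molecule) in 5463 barcodes, and the multipara library 82503776 in 5075, with 7 barcodes shared. After the filter of the study and removal of called doublets, 4330 and 3330 cells were left. Cells were placed by hormone and marker UMIs alone, with no member used. A beta-gated cell had at least 10% of its UMIs from Ins1 and Ins2, and alpha- and delta-gated cells at least 2% from Gcg and Sst. Other gates needed at least 3 detected markers of 1 list. There were 1665 virgin and 1482 multipara beta-gated cells, 805 and 425 alpha, 90 and 95 delta, 256 and 209 endothelial, 61 and 63 pericyte, 62 and 95 macrophage, 127 and 39 T and 161 and 39 B cells. These 8 gates were compared. Separate check markers were highest in their own gate in 10 of 10 gene and library pairs for beta, 8 of 8 for endothelial, pericyte and macrophage, 8 of 10 for alpha, 7 of 8 for delta and T and 6 of 8 for B cells. Insulin UMIs, which mark free RNA in droplets of other cells, were 1.01% of the endothelial total in virgin and 2.0% in multipara.

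The class I sum was lower in hormone cells and pericytes than in endothelial and immune cells, in both libraries and on both scales given here. The 6 genes together took 464 CPM (UMIs scaled to a common total for every gate) in virgin and 450 in multipara beta-gated cells, 632 and 572 in alpha, and 1068 and 1081 in delta. They took 1359 and 1146 CPM in pericytes, the contractile cells around capillaries. The level was 7763 and 7352 CPM in endothelial cells, 7679 and 6888 in macrophages, 7431 and 8141 in T cells and 5936 and 5090 in B cells. In virgin the intervals of endothelial, macrophage and T cells overlapped in turn, and in multipara those of pericytes and delta cells did. Every other pair of neighbours in the order of the summed level was apart by more than counting error in its library.

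Endothelial cells thus held 16.7 times (95% interval 16.3 to 17.1) the beta level in virgin and 16.3 times (15.9 to 16.7) in multipara. CPM are shares, and insulin made 57.5% and 58.7% of the UMIs of beta-gated cells. With the UMIs of 7 hormone and granule genes left out of every total, the folds were 6.44 and 6.16. On that scale alpha cells no longer stood above beta cells, at 0.853 and 0.801 times the beta level. Pericytes, at 1387 and 1197 CPM of the remaining UMIs, lay below delta cells (1506 and 1534) and, in multipara, below beta cells (1223 in either library).

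The heavy chains H2-K1 and H2-D1, which hold the peptide, carried most of the class I UMIs of beta-gated cells. H2-K1 had 11676 UMIs (243 CPM) in virgin and 10405 (239) in multipara, and H2-D1 had 7053 (147) and 6208 (143). Endothelial H2-K1 stood at 1972 and 1951 CPM and H2-D1 at 2748 and 2557. H2-K1 was highest in T cells, at 2700 and 2903 CPM, above endothelial cells in both libraries. Thinned to 2000 UMIs per cell, H2-K1 gave a UMI in 37.0% of the 1612 beta-gated cells left in virgin and 35.0% of the 1341 in multipara and in 96.4% of endothelial cells of either library. These heavy chains are similar in sequence to each other and to genes of the H2-Q and H2-T families. Reads can therefore be lost or split, and their levels are uncertain.

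H2-D1 took a smaller share beside H2-K1 in beta cells than in the vessel wall. For each 100 H2-K1 UMIs there were 60.4 (58.6 to 62.2) and 59.7 (57.8 to 61.6) H2-D1 UMIs in beta cells. There were 86.8 and 86.7 in alpha cells, 139 (132 to 147) and 131 (124 to 138) in endothelial cells, and 135 and 152 in macrophages. The ratio within a cell type does not depend on the total, so insulin does not enter it.

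B2m, the light chain without which heavy chains do not reach the surface, differed most between cell types. Beta-gated cells held 1034 UMIs (21.5 CPM) in virgin and 1022 (23.5) in multipara, alpha 33.0 and 34.9 CPM and delta 49.4 and 48.3. Endothelial cells held 2256 and 2129 CPM and macrophages 2712 and 2504. Endothelial B2m was 105 times (97.7 to 113) the beta level in virgin and 90.5 times (84.2 to 97.3) in multipara, and 40.4 and 34.2 times with hormone UMIs out of the totals.

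For each 100 H2-K1 UMIs, B2m gave 8.86 (8.30 to 9.44) and 9.82 (9.20 to 10.5) in beta cells, 11.7 and 13.8 in alpha and 11.8 and 9.86 in delta. Pericytes gave 115 and 128, although their class I sum was close to that of delta cells. Endothelial cells gave 114 and 109, macrophages 147 and 168, B cells 97.7 and 96.9 and T cells 71.9 and 67.7. The 3 hormone gates thus lay apart from every other compared gate, in both libraries. UMI counts of 3′ ends do not scale with transcript length, but capture can differ between genes, so a ratio is read across cell types and not as a ratio of molecules. B2m lies inside Patl2 on the opposite strand, and whether the counting used strand is not given in the sources used here.

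**Figure D1:**
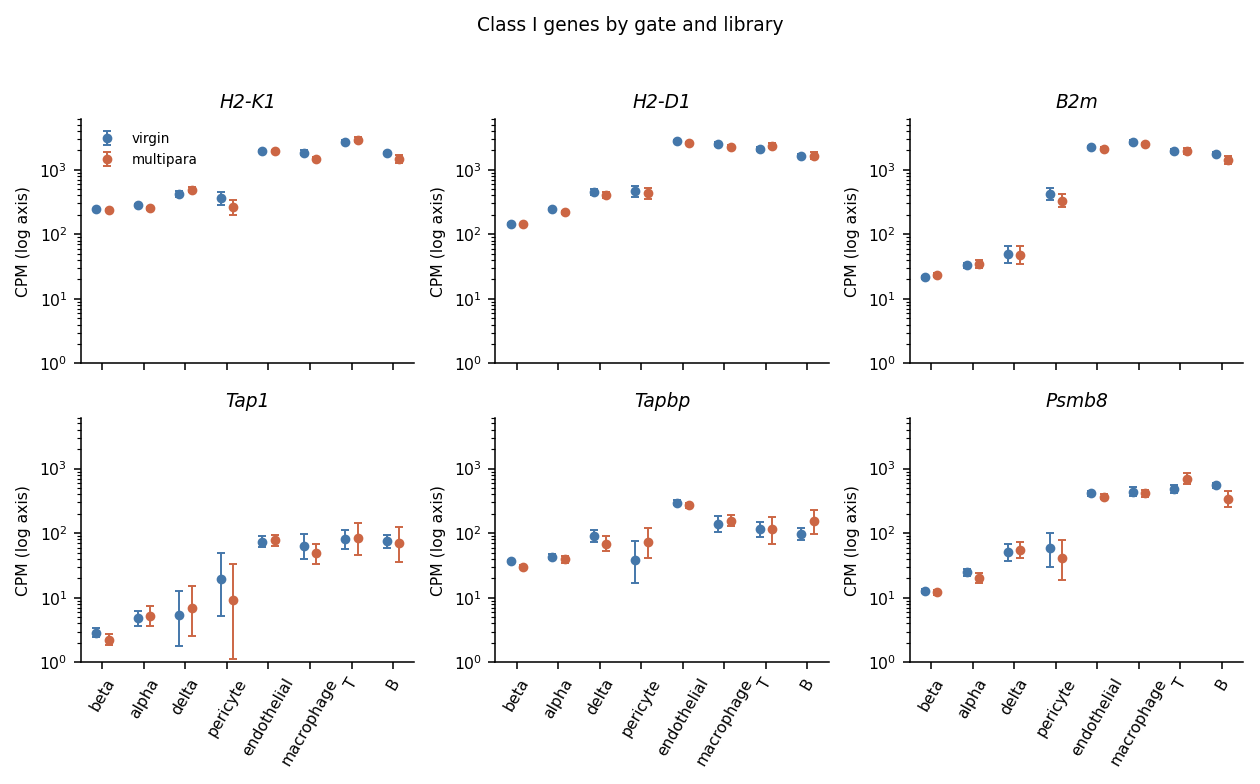
Level of each class I gene in CPM on a log axis, by gate, in the virgin (blue) and multipara (orange) library. Points are sums over the cells of a gate and bars are 95% Poisson intervals. B2m rises from 21.5 and 23.5 CPM in beta-gated cells to 2256 and 2129 in endothelial cells.

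Tap1 and Tapbp serve peptide loading. Tap1, a subunit of the peptide pump, had 139 and 98 UMIs in beta-gated cells (2.89 and 2.25 CPM), against 74.2 and 78.1 CPM in endothelial cells. Tapbp, or tapasin, which bridges the pump and the heavy chain, had the smallest spread, from 37.3 and 30.3 CPM in beta cells to 298 and 269 in endothelial cells. Tapbp was highest in endothelial cells in both libraries, above the immune gates. It shares 3422 bases with Zbtb22 on the same strand, so part of its count may belong there.

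Psmb8 encodes an immunoproteasome subunit that replaces the subunit encoded by Psmb5. Psmb8 had 618 UMIs (12.9 CPM) in virgin and 525 (12.1) in multipara beta-gated cells, and 415 and 369 CPM in endothelial cells. For each 100 Psmb5 UMIs, Psmb8 gave 16.0 (14.7 to 17.5) and 14.1 (12.8 to 15.5) in beta cells, 23.5 and 17 in pericytes, 218 (188 to 255) and 253 (214 to 300) in endothelial cells and 444 and 525 in macrophages. Psmb5 gave more UMIs than Psmb8 in hormone cells and pericytes, and fewer in endothelial, macrophage, T and B cells. As above, this is not read as a ratio of molecules.

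**Figure D2:**
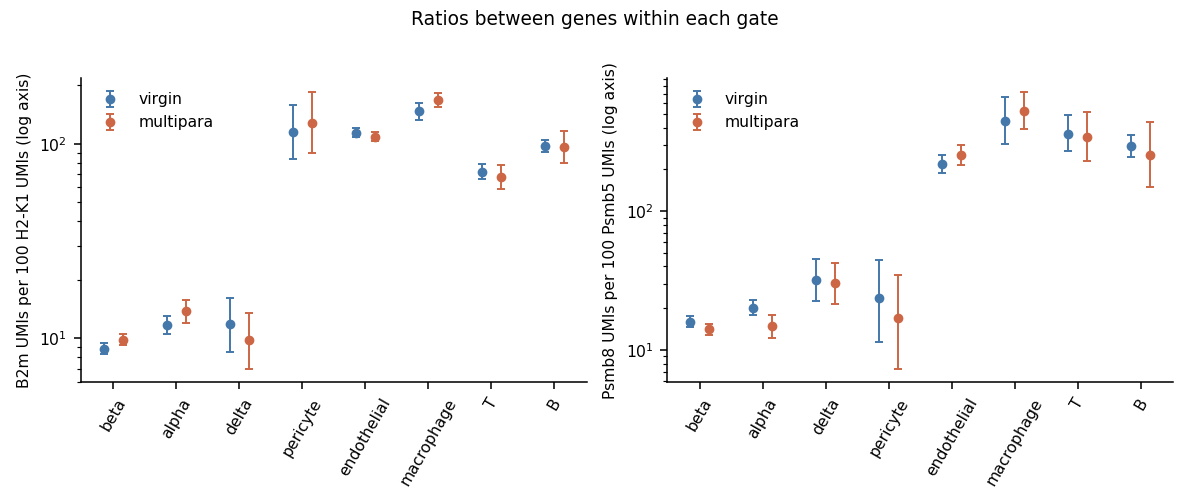
UMIs of B2m per 100 of H2-K1 (left) and of Psmb8 per 100 of Psmb5 (right) on log axes, by gate, virgin in blue and multipara in orange. Bars are exact 95% intervals. In the left panel the 3 hormone gates lie between 8.86 and 13.8 and the other gates between 67.7 and 168.

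Between the libraries, class I genes of beta-gated cells differed little. The summed level was 0.04 lower in multipara on the log2 scale (-0.04, interval -0.07 to -0.02), while the median over all genes was -0.09. This difference turned its sign under other scalings, for example 0.04 with TMM. Of the 6 genes, 0 were past 1.5-fold in either direction, where 4.37% of 13780 genes tested were past it upwards and 9.35% downwards. Their median was -0.06. Tapbp was the most clearly lower, at -0.30 (-0.40 to -0.20), followed by Tap1 at -0.36 (-0.75 to 0.02). B2m was at 0.13 (0.00286 to 0.26), but at -0.25 after thinning.

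Alpha-gated cells gave -0.14 (-0.20 to -0.09) for the class I sum, with H2-K1 at -0.15 and H2-D1 at -0.16. Delta-gated cells gave 0.02 (-0.11 to 0.15) and endothelial cells -0.08 (-0.12 to -0.04). In these 3 gates 0 of 6 members were past 1.5-fold, against 4.35% of genes higher and 8.57% lower in alpha, 10.3% and 13% in delta and 6.16% and 11.6% in endothelial cells. Macrophages gave -0.16 (-0.23 to -0.09), with H2-K1 at 1843 and 1490 CPM (-0.31, -0.45 to -0.16). B cells gave -0.22 (-0.33 to -0.11), with Psmb8 at 548 and 339 CPM (-0.69, -1.13 to -0.28). T cells gave 0.13 (0.04 to 0.22), and Psmb8 there stood at 481 and 702 CPM (0.55, 0.21 to 0.88). Pericytes gave -0.25 (-0.50 to 0.01), with 1 of 5 members past 1.5-fold higher, Tapbp with 8 and 16 UMIs, and 0 lower, against 15% and 17.8% of 5826 genes. In B cells 1 of 6 members was past 1.5-fold each way, Tapbp higher (0.67, -0.05 to 1.33) and Psmb8 lower, against 17.1% and 30.2% of 6562 genes. In macrophages and T cells 0 of 6 were, against 11.9% and 23.7% and against 20.7% and 19.5%. The multipara T and B gates held 39 cells each. The median over all genes was -0.08 in alpha, -0.03 in delta and -0.06 in endothelial cells. It was -0.14 in macrophages, -0.11 in B cells, 0.03 in T cells and -0.09 in pericytes. Less this median, the class I sum stood at -0.02 in endothelial cells and macrophages, -0.07 in alpha and -0.11 in B cells. In T cells it stood at 0.10, in delta cells at 0.05 and in pericytes at -0.16.

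The other genes of the class I pathway are read in beta-gated cells against the same 4.37% of genes higher and 9.35% lower. Of 8 further heavy chain genes with at least 10 UMIs, 1 was past 1.5-fold higher, and this was H2-Q6, with 27 and 52 UMIs (1.09). Of 6 other loading genes and 7 other proteasome genes, 0 were past 1.5-fold, and their medians were 0.09 and 0.01. Cd274, which encodes a T cell inhibiting ligand and was the 1 gene of the costimulation list with at least 10 UMIs, had 176 and 134 (-0.25).

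Interferon response genes are a readout of the signal that induces these pathways. In beta-gated cells 5 of 9 were past 1.5-fold lower in multipara, with a median of -0.99, and 0 were past it higher, where 9.35% and 4.37% of all genes were. Irf7, an interferon-induced transcription factor, had 129 and 57 UMIs (-1.03, -1.51 to -0.57). Oasl2 had 101 and 46 (-0.99) and Ifit1 119 and 77 (-0.48), while Rsad2, also interferon-induced, had 238 and 314 (0.55, 0.30 to 0.79). Of 8 interferon regulators 0 were past 1.5-fold. In macrophages 3 of 7 readout genes were past 1.5-fold higher and 0 lower, against 11.9% and 23.7% of genes. In endothelial cells 0 of 9 were higher and 3 lower, against 6.16% and 11.6%. Alpha cells had 1 of 6 each way, against 4.35% and 8.57%. Delta cells had 2 of 3 higher and pericytes 2 of 2, against 10.3% and 15%, and 0 lower. T cells had 2 of 3 lower and B cells 1 of 2, against 19.5% and 30.2%, and 0 higher.

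A small set of virgin beta-gated cells had interferon genes and a higher summed class I level. In virgin, 20 cells had at least 3 of the 9 interferon genes. With the cell that also had macrophage or dendritic marker UMIs left out, 19 remained. These held 672 CPM (608 to 740) of class I genes, against 449 (441 to 457) in 1042 cells with no interferon gene. B2m stood at 89.7 against 18.1 CPM and Psmb8 at 48.9 against 12.5, whereas H2-K1 stood at 282 against 235. In multipara, 11 such cells held 434 CPM (371 to 504) against 444 (436 to 453), with B2m at 25.5 against 24.1. Median depth was 34449 against 28641.5 UMIs in virgin and 37535 against 28969.5 in multipara. Beyond the gate limits, RNA of endothelial, T or other cells in these droplets was not checked. The levels are sums, and how they spread over the 19 cells was not examined.

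Class II genes were concentrated in macrophages, dendritic cells and B cells. The 4 genes together took 77163 CPM in virgin and 90169 in multipara macrophages, and 18028 and 21659 in B cells. In the median macrophage they made 8.68% and 9.02% of all UMIs. The 17 virgin and 6 multipara dendritic-gated cells, too few to compare, stood at 54420 and 72708 CPM. Every other compared gate held under 200 CPM.

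Cd74 encodes the invariant chain, which guards the peptide groove until loading. In macrophages it had 12771 and 28478 UMIs (37117 and 43579 CPM). H2-Aa, the alpha chain of the I-A molecule, had 13587 and 16074 CPM, its partner H2-Ab1 13268 and 15136, and H2-Eb1, the beta chain of I-E, 13192 and 15379. The 3 chains were thus nearly level with each other. Cd74 took 48.1% (47.5 to 48.7) and 48.3% (47.9 to 48.7) of the class II UMIs of macrophages and 58.0% (57.3 to 58.8) and 57.6% (55.9 to 59.3) of those of B cells.

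In macrophages each class II gene was slightly higher in multipara, between 0.19 and 0.24 on the log2 scale, and the sum was at 0.22 (0.20 to 0.25). None of the 4 was past 1.5-fold, against 11.9% of 6200 genes higher and 23.7% lower. The median over all genes there was -0.14, and the sum stood at 0.46 with TMM and 0.43 with median-of-ratios scaling. In B cells the sum was at 0.26 (0.21 to 0.32), with 0 of 4 past 1.5-fold, against the same 17.1% and 30.2% of genes.

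Ciita, the class II coactivator, had 39 and 58 UMIs in macrophages and 66 and 5 in B cells. It had 0 and 2 in all beta-gated and 1 and 1 in all endothelial cells. Macrophages held 26550 and 58923 class II UMIs beside these few of Ciita. The much smaller class II counts of beta-gated and endothelial cells therefore leave too few Ciita UMIs to read its presence or absence there. H2-DMa and H2-DMb1, which exchange the peptide, had 255 and 509 and 250 and 499 UMIs in macrophages. The chains H2-DMb2, H2-Oa and H2-Ob were B cell genes here, with 277 and 54, 142 and 19, and 165 and 36 UMIs. H2-DMb2 had 4 and 5 UMIs in macrophages. Ctss, a protease that trims the invariant chain, had 1514 and 3173 UMIs in macrophages and 279 and 79 in B cells.

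**Figure D3:**
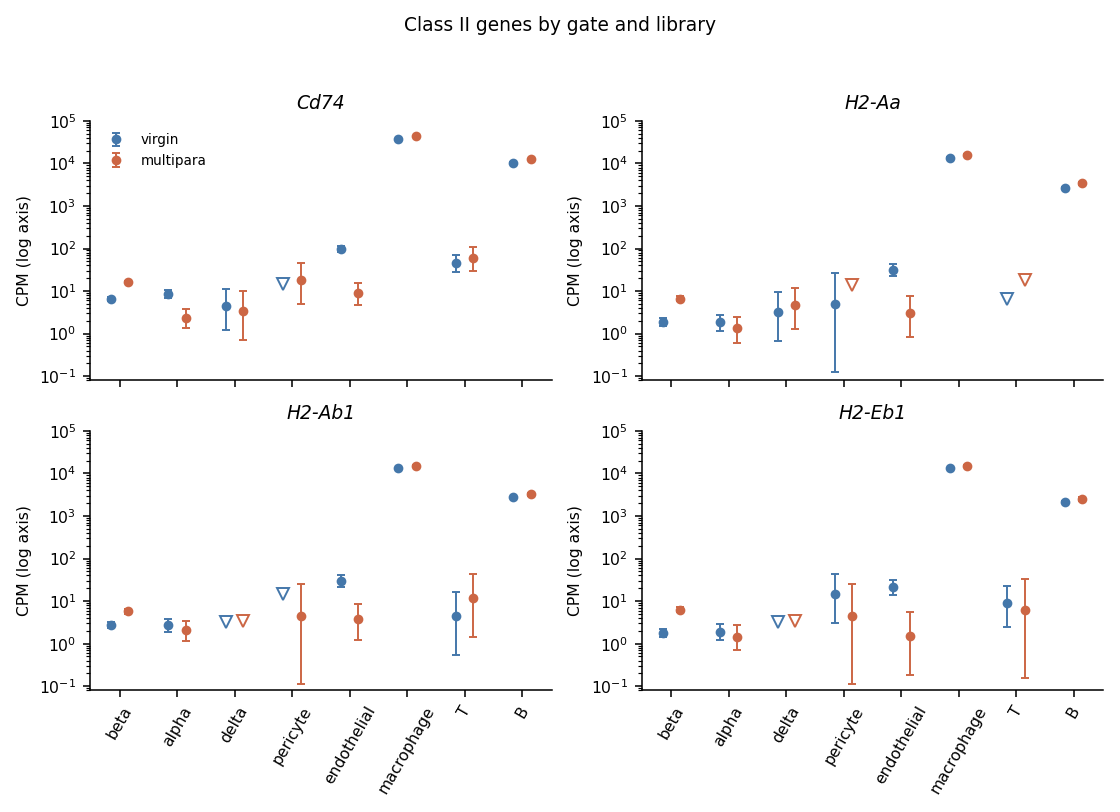
Level of each class II gene in CPM on a log axis, by gate, virgin in blue and multipara in orange. Bars are 95% Poisson intervals, and open triangles stand at the level of 3 counts where no UMI was seen. Macrophages and B cells lie above 2000 CPM and every other gate below 100.

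In beta-gated cells the class II sum was 618 UMIs (12.9 CPM) in virgin and 1530 (35.2) in multipara, a log2 difference of 1.45 (1.32 to 1.59). Cd74 had 309 and 713 UMIs, H2-Aa 91 and 289, H2-Ab1 131 and 252 and H2-Eb1 87 and 276. All 4 genes were past 1.5-fold higher, where 4.37% of all genes tested were. Very few cells held these counts. The 2 highest multipara cells had 496 and 429 UMIs, or 60.5% of the total, and 13 cells with over 10 UMIs held 1246. In virgin 5 cells with over 10 UMIs held 266. Cells with at most 10 UMIs held 352 UMIs in virgin and 284 in multipara.

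Most multipara cells rich in class II also carried markers of antigen-presenting cells, and in virgin fewer did. Of the cells with over 10 class II UMIs, 11 of 13 had a macrophage or dendritic marker UMI in multipara and 2 of 5 in virgin. The 3 virgin cells without one held 41, 29 and 21 class II UMIs, and the 2 multipara cells without one held 36 together. The highest virgin cell, with 147, had 8 dendritic marker UMIs. The highest multipara cell had 30 dendritic marker UMIs and 32.7% insulin, and the second 3 dendritic and 1 macrophage UMIs and 51.1% insulin. The 6 multipara cells next in order each held 594 to 990 UMIs in all, with 24 to 68 from class II and 10.2% to 38.2% from insulin, and 5 of them had macrophage markers. Beta-gated cells with at least 2 macrophage or dendritic marker UMIs numbered 3 in virgin, with 175 class II UMIs, and 12 in multipara, with 1145. Summed over all beta-gated cells, the 7 macrophage markers had 31 and 85 UMIs and the 7 dendritic markers 15 and 38.

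In beta-gated cells with no macrophage or dendritic marker UMI, the class II level was 9.32 CPM (8.46 to 10.2) in virgin and 7.09 (6.30 to 7.94) in multipara. The direction was thus the opposite one, at -0.39 on the log2 scale. The few cells with over 10 class II UMIs held 91 of the 437 virgin and 36 of the 296 multipara UMIs. The other cells stood at 7.38 (6.63 to 8.20) and 6.23 (5.50 to 7.03) CPM, with intervals that overlapped. Thinned to 2000 UMIs, a class II UMI was left in 1.49% (0.956 to 2.21) of beta-gated cells in virgin and 1.72% (1.09 to 2.56) in multipara. The share was 3.41% (0.709 to 9.64) and 2.22% (0.270 to 7.80) in delta cells and 3.57% (0.435 to 12.3) and 6.78% (1.88 to 16.5) in pericytes, cell types that do not make class II at rest, with median depths of 9852 and 9782 and of 3187 and 3432 UMIs before thinning. The intervals of the beta share, at median depths of 30002 and 32116.5, overlapped these, so the share is not read as expression. Left unthinned it was 18.3% and 17.3%.

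B cell markers did not follow the same pattern. Cd79a had 1552 and 487 UMIs in beta-gated cells, spread over 562 and 258 cells, while Pax5 had 0 in both libraries. Of 4 other class II genes with at least 10 UMIs in beta-gated cells, 2 were past 1.5-fold higher, against 4.37% of all genes, Ctss with 18 and 42 UMIs (1.37) and H2-DMb1 with 5 and 11.

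**Figure D4:**
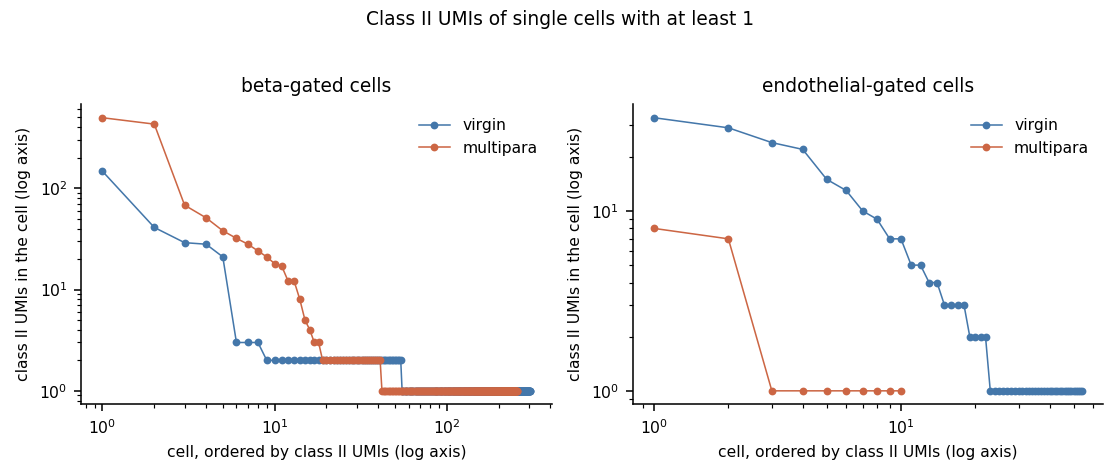
Class II UMIs of single cells with at least 1, ordered from the highest, for beta-gated (left) and endothelial-gated (right) cells, on log axes, virgin in blue and multipara in orange. In multipara beta-gated cells the first 2 points stand at 496 and 429 UMIs, and the endothelial curve of multipara stays at or below 8.

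Alpha-gated cells had 179 and 49 class II UMIs (15 and 7.21 CPM, -1.06, -1.54 to -0.59). Cd74 had 102 and 16, so that it was the 1 class II gene past 1.5-fold, against 8.57% of genes lower. H2-Aa, H2-Ab1 and H2-Eb1 had intervals that reached both sides of 0. The highest virgin alpha cell had 18 UMIs and the highest multipara cell 3. Delta-gated cells had 7 UMIs in each library, with 0 of H2-Ab1 and H2-Eb1.

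Among the compared gates the largest class II difference between the libraries was in endothelial cells. Their class II sum was 239 UMIs (181 CPM) in virgin and 23 (17.3) in multipara, at -3.39 (-4.07 to -2.77). Cd74 had 129 and 12 UMIs, H2-Aa 42 and 4, H2-Ab1 40 and 5 and H2-Eb1 28 and 2. All 4 were past 1.5-fold lower, where 11.6% of 9817 genes were. H2-DMa had 9 and 0 UMIs, H2-DMb1 10 and 1, and Ctss 5 and 0. A class II UMI was found in 54 of the 256 cells in virgin and 10 of the 209 in multipara, and 6 virgin cells with over 10 UMIs held 136. Thinned, the shares were 13.8% (9.56 to 19.0) and 2.54% (0.829 to 5.82), and the interval of the multipara share overlapped those of delta cells and pericytes, so it is not read as expression. T cells, which in mice do not make class II, gave 12.0% (6.70 to 19.3) and 18.4% (7.74 to 34.3), so that the virgin endothelial share did not stand above theirs. The virgin endothelial level of 181 CPM did, at 59.8 (39.4 to 87.0) in virgin T cells. This rested on the few cells with over 10 UMIs. Virgin endothelial cells with no macrophage or dendritic marker UMI and at most 10 class II UMIs stood at 81.3 CPM (63.1 to 103). That interval overlapped the one of T cells. Median depth was 4336 and 5136 UMIs in endothelial and 3389 and 3016 in T cells.

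Class II in virgin endothelial cells went with genes of venous endothelium. Ackr1, Selp, Vwf and Lrg1, a list added after the values were seen, had 402 UMIs in virgin and 62 in multipara. In virgin, 10 cells with at least 3 of these UMIs held 98 class II UMIs (1251 CPM), 9 cells with 1 or 2 held 48 (805 CPM), and 237 cells with none held 93 (78.6 CPM). In multipara 3 cells with at least 3 held 8, 6 cells with 1 or 2 held 0, and 200 cells with none held 15 (12.0 CPM). Among cells with none, the libraries still differed, at -2.71. The part of the venous cells in the difference was not tested beyond this.

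Macrophage gate markers were near 0 in endothelial cells, with 5 and 4 UMIs. The dendritic gate markers had 88 and 89 UMIs, all from 1 gene of the list. Endothelial cells with no macrophage or dendritic marker UMI held 175 class II UMIs in virgin (201 CPM) and 12 in multipara (16.0 CPM). A broader myeloid list (Tyrobp, Fcer1g, Lyz2, Il1b and Laptm5), also added after the values were seen, had 146 and 19. Virgin cells without any of these held 193 class II UMIs in 242 cells (160 CPM), and the multipara ones 8 in 197 (6.40 CPM). The libraries thus still differed among cells without such UMIs, with the multipara level resting on 8 class II UMIs. Cells with such UMIs, 14 in virgin and 12 in multipara, stood at 407 and 186 CPM. The part of myeloid RNA in the difference was not tested. Class I did not differ as class II did between virgin cells with and without venous UMIs, which held 8286 and 7702 CPM.

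Fibroblast-gated cells were compared no further, with 37 and 5 cells. In virgin 12 of them held 230 class II UMIs, of which 125 were in 1 cell, and in multipara 0 of 5 cells had any, which allows at most 3 counts of 20191 UMIs. T cells had 27 and 13 class II UMIs, of which 21 and 10 were Cd74 and 0 in both were H2-Aa.

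**Figure D5:**
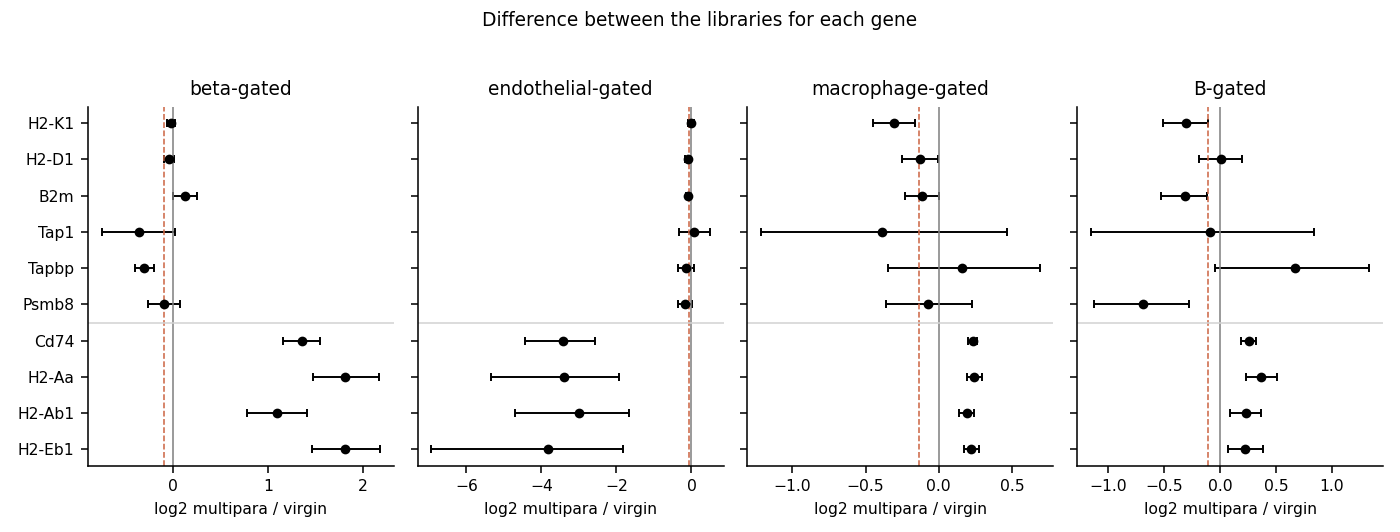
Log2 ratio of multipara over virgin for each gene in 4 gates, with exact 95% intervals that cover counting error only. The grey line is 0 and the dashed line the median of all genes. Class II genes lie above 1 in beta-gated cells, near 0.2 in macrophages and below -3 in endothelial cells.

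Across the 16 points of 8 gates and 2 libraries, on a log2(CPM + 10) scale, the 4 class II genes followed each other with Pearson r between 0.98 and 0.99. The class I genes followed each other between 0.82 and 0.98, with the lowest value between B2m and Tapbp. Between the classes r lay between 0.39 and 0.64. Points of 1 library share depth and free RNA, and these values are descriptions. Of 12421 other genes, those most like the class I sum were Arpc3 (0.98), Psmb9, Srgn, Tpm3 and Crlf2 (0.97 each), and those most like the class II sum were Spi1, H2-DMa, Ly86, Lat2 and Cyp4f18 (0.98 each).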

How the data were processed

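The deposited files are raw UMI count matrices of 10x 3′ libraries. Cell Ranger 3.1.0 produced them for the authors. Per the labels, the build was GRCm38 and Seurat 3.0 was also used. Cells with over 200 and under 6000 genes, under 60000 UMIs and under 10% mitochondrial UMIs were kept. Scrublet (scanpy 1.11.5) then removed 61 and 44 doublets (1.39% and 1.30%). Cells were gated as given in the text, with 525 and 421 cells of several hormones left out, and 358 and 338 with a hormone and markers of another list, most of them of the duct list. Sums are in CPM, with exact Poisson 95% intervals. Ratios have exact conditional binomial intervals and shares Clopper-Pearson intervals. A ratio past 1.5-fold was counted among genes of at least 10 UMIs in both libraries together. No test between groups was run, since each group was 1 library. The ratio and interval code was tested on simulated data.

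The members and lists were chosen with earlier results of these data known. Named were the 10 members, the 3 highest and 3 lowest other pathway genes of at least 50 UMIs in beta-gated cells, the 5 genes most like each class sum, and gate markers. Ciita, the other class II genes, Psmb5 and Cd274 were named after their values were seen. Of the list genes, 4 (H2-K2, H2-Ea-ps, H2-Ea and Ifi30) were not used here. Gene locations are from GENCODE M21, where 30934 of 31053 identifiers were found. Python 3.11.15, numpy 2.4.6, pandas 2.3.3, scipy 1.17.1 and matplotlib 3.10.9 were used.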

Additional observations from a re-analysis of the deposited data

Results flagged for a closer look

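The class II sum over all cells of a gate went opposite ways in beta- and endothelial-gated cells. It was higher in multipara in beta-gated cells, at 1.45 on the log2 scale, and lower in endothelial-gated cells, at -3.39. In beta-gated cells 2 multipara cells held 60.5% of the UMIs, and cells with no macrophage or dendritic marker UMI gave -0.39, the same direction as in endothelial cells. The difference between these was not tested, since each group was 1 library.

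Class II UMIs were also found in cells that entered no gate, being unassigned or having markers of several lists. The virgin library had 9283 such UMIs in 134 cells, of which 61 held over 10 each. The multipara library had 764 in 88 cells, of which 5 did. Cells left out for carrying a hormone and markers of another list held 2527 class II UMIs in 358 virgin and 1770 in 338 multipara cells, and cells of several hormones 103 in 525 and 59 in 421. Among cells outside every gate, the contrast between the libraries in class II UMIs is thus smaller with these included. These cells are not part of the sums within gates, but those sums depend on which cells are left out. With doublets kept, beta-gated cells had 1015 class II UMIs in virgin and 1532 in multipara (0.74 on the log2 scale). With doublets removed the sums were 618 and 1530 (1.45).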

How the results depend on the processing

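No paired analysis was possible because each group was 1 library, and for the same reason none could be left out. All values are log2 ratios. The beta class I sum (-0.04) became 0.040 with TMM and 0.043 with median-of-ratios scaling, 0.00030 with hormones out of the total, 0.081 with cells weighted equally, 0.018 after thinning and -0.074 in cells with no immune marker UMI. The alpha class I sum became -0.083 with 2 markers in place of 3, -0.078 with TMM, -0.072 with median of ratios and -0.26 thinned, and the endothelial one -0.13 with 2 markers, -0.018 with TMM and -0.14 with no cell filter. Endothelial over beta was 4.06 in virgin and 4.03 in multipara. With hormones out of the total these became 2.69 and 2.62, with equal weights 4.02 and 3.85, and in multipara 3.95 with 2 markers and 4.07 without immune UMIs.

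The macrophage class II sum (0.22) became 0.25 with 2 markers, 0.46 with TMM and 0.43 with median of ratios. The beta class II sum (1.45) turned to -0.17 without immune UMIs and -0.39 without macrophage or dendritic UMIs, the latter chosen after seeing the data. It was 0.91 with no cell filter, 0.74 with doublets kept, 1.13 and 1.27 with hormone limits halved and doubled, 1.21 with 2 markers, 3.87 with equal weights, 0.86 thinned and 1.14 in cells of at least 2000 UMIs. Without immune UMIs the beta values turned to -0.063 for Cd74, -0.24 for H2-Aa, -0.030 for H2-Ab1, -0.53 for H2-Eb1 and -0.0066 for B2m. Without macrophage or dendritic UMIs they turned to -0.45, -0.36, -0.42 and -0.23 for the 4 class II genes, and thinning turned B2m to -0.25. The endothelial class II sum became -2.43 thinned and -2.71 without venous UMIs. The 63 other alternatives of these sums and folds stayed within the main counting interval. The causes of these changes were not tested.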
